A study of Canis lupus familiaris with 15 samples.

Results

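Expression of 5 antigen presentation genes was followed over 15 canine samples measured on 1-colour Agilent arrays, 1 array per sample. The genes were DLA-DOB, DLA-DMA and DLA-DMB of the class II peptide loading route, PSMB8 of the immunoproteasome, and CD1A8 of the CD1 lipid route. They were found by the RefSeq accession attached to each probe, which gave 7 probes for the 5 genes, among 1357 genes with a RefSeq symbol and 36604 targets in all. The samples came from 5 dogs with lymphoma, which the labels name. The groups were skin biopsies as control tissue (MalcolmX and Rosco, n = 2), biopsies of an original drug-resistant tumour (MalcolmX, Jake, Rosco and Dog Y, n = 4) and a biopsy of a drug-sensitive tumour whose title calls it naive (Thai, n = 1). MalcolmX also gave 1 fine needle aspirate of the resistant tumour after metformin. Rosco gave 7 more samples: an aspirate taken after chemotherapy had failed and before metformin, an aspirate in remission after metformin, 3 aspirates at relapse after metformin, an aspirate of a second original resistant tumour, and a tumour sample retrieved after death. The 3 relapse samples are titled as no remission and described as relapse, and for the Rosco and Dog Y biopsies 1 label gives a time before treatment while another calls the tumour resistant. No age, breed or dose was used here. The repeated Rosco samples measure the spread within 1 dog and not between dogs.

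Class II molecules carry peptides from the endosomal compartment to the cell surface of B cells, macrophages and dendritic cells. The DM heterodimer, encoded by DLA-DMA and DLA-DMB, releases the invariant chain fragment from class II molecules and edits the peptides they bind, while the DO heterodimer, of which DLA-DOB encodes the beta chain, binds DM and restrains it, in B cells above all. PSMB8 is a catalytic subunit that replaces its constitutive counterpart in the interferon-inducible immunoproteasome, which cuts proteins into peptides for class I molecules. CD1 molecules resemble class I in fold but present lipids, and group 1 CD1 genes, which dogs carry in several CD1A copies, are best known from dendritic cells, thymocytes and some B cells. In the RefSeq gene table of assembly UU_Cfam_GSD_1.0, DLA-DOB, TAP2, PSMB8, TAP1, PSMB9, DLA-DMB and DLA-DMA follow one another without another protein-coding gene between them. CD1B, CD1C, CD1A8 and CD1A6 likewise form an unbroken run on another chromosome.

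Levels are log2 processed signals relative to the array's own 75th percentile, where 0 marks a bright spot, and a level of 1 gene is not compared with that of another. The lowest level well above background on an array lay between -6.86 and -5.50. DLA-DOB, DLA-DMA, DLA-DMB and PSMB8 were well above background on 15 of 15 arrays, and CD1A8 on 10 of 15. Between 66.8% and 75.9% of all probes were well above background, and the number of arrays limits the precision. Several samples stood apart before any comparison. MS4A1, which encodes the B cell protein CD20, lay at -7.16 in the Rosco biopsy and -6.73 in the second resistant aspirate, at the level of background and close to the -8.04 of Rosco skin. Both arrays carried the exocrine gland markers CA6, SPINT2 and KRT19 at a mean level of 5.68 and 5.77, against at most 2.67 on any other array. MalcolmX skin held MS4A1 at 0.84, above the 0.40 and 0.38 of the failed-chemotherapy and remission aspirates. These are bulk samples, in which fewer cells of a type and less RNA per cell cannot be told apart.

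DLA-DMA, the alpha chain of DM, lay in a narrow band in most tumour samples and far lower in the rest. Its levels were 2.13 in the MalcolmX biopsy, 3.19 in Jake, 2.93 in Dog Y, 2.71 in Thai and 2.40 in the MalcolmX aspirate after metformin. In Rosco they were 3.02 after failed chemotherapy, 2.81 in remission, 2.72, 2.66 and 3.07 in the 3 relapse aspirates, and 1.90 after death. The remaining 4 arrays gave 0.28 for MalcolmX skin, -0.76 for Rosco skin, -0.49 for the Rosco biopsy and -0.30 for the second resistant aspirate. The 11 higher arrays thus spanned 1.29 log2 units, while all 15 spanned 3.95, and the Rosco biopsy and second resistant aspirate fell between the 2 skin samples.

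DLA-DMB, the beta chain, ranked the samples in much the same way. It measured 1.86 in the MalcolmX biopsy, 2.94 in Jake, 2.72 in Dog Y, 3.37 in Thai and 2.09 in the MalcolmX aspirate after metformin. In Rosco it was 2.66 after failed chemotherapy, 2.49 in remission, 2.54, 2.30 and 2.98 at relapse and 1.54 after death. The 4 low arrays were again MalcolmX skin at -0.23, Rosco skin at -1.27, the Rosco biopsy at -1.14 and the second resistant aspirate at -1.23. The highest sample was Thai, where for DLA-DMA it was Jake. A second DLA-DMB probe followed the first with r = 0.998 over the 15 arrays.

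DLA-DOB, the beta chain of the DM inhibitor DO, spread more widely among tumours. It stood at 1.08 in Jake, -0.02 in Dog Y, 0.40 in Thai, -1.27 in the MalcolmX biopsy and -1.43 in the MalcolmX aspirate after metformin. In Rosco it was 1.42 both after failed chemotherapy and in remission, 1.35, 1.16 and 1.67 at relapse and 0.67 after death. The low arrays gave -3.53 for MalcolmX skin, -4.54 for Rosco skin, -4.22 for the Rosco biopsy and -3.09 for the second resistant aspirate. Both MalcolmX tumour samples lay below every other sample of the 11 higher arrays; among those 11 arrays DLA-DOB ran from -1.43 to 1.67. The 2 DLA-DOB probes had r = 0.944 over 15 arrays but disagreed on Thai, at 0.40 on the brighter probe used here and -2.43 on the other, and the other was not well above background in Rosco skin, the Rosco biopsy and the second resistant aspirate.

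PSMB8, the immunoproteasome subunit, varied little between the relapse aspirates. Its 3 relapse levels had an SD of 0.03. The gene stood at 3.50 in the MalcolmX biopsy, 4.02 in Jake, 4.45 in Dog Y, 4.88 in Thai and 3.52 in the MalcolmX aspirate after metformin. In Rosco they were 4.14 after failed chemotherapy, 3.86 in remission, 4.11, 4.17 and 4.16 at relapse and 3.50 after death. MalcolmX skin gave 1.55, Rosco skin -0.68, the Rosco biopsy -0.04 and the second resistant aspirate -0.29. Here MalcolmX skin stood clear of the other 3 low arrays, and Thai was the highest sample.

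CD1A8 ordered the samples differently. Among tumours outside the Rosco series it was at -0.90 in Jake, -1.87 in Dog Y and -2.01 in Thai, but at -5.87 in the MalcolmX aspirate after metformin and not well above background in the MalcolmX biopsy (-7.03). In Rosco it was not well above background in the biopsy (-6.92), after failed chemotherapy (-6.34) or in the second resistant aspirate (-5.50), and stood at -5.00 in remission, -1.78, -1.38 and -0.94 at relapse and -1.90 after death. Rosco skin held -3.20, and MalcolmX skin was not well above background (-6.59). CD1A8 was low in the MalcolmX tumour samples and the failed-chemotherapy and remission aspirates, in which DLA-DMA, DLA-DMB and PSMB8 were high. DLA-DOB was high in these 2 Rosco aspirates, but at -1.27 and -1.43 the MalcolmX tumour samples were its lowest of the 11 arrays. The other 7 of the 11 arrays high in the peptide route genes held the highest CD1A8 levels, -2.01 to -0.90. From the top, the order ran from Jake through the relapse mean of -1.37 (SD 0.42, n = 3) to Dog Y, the sample after death and Thai, the last 3 of which lay closer together than the relapse SD. The probe has 5 spots per array, whose levels had an SD of 0.03 to 0.23 on the arrays where the probe was above background and 0.34 to 0.79 on the others. CD1A8 and CD1A6 are related copies and the probe sequence was not used here, so signal from another CD1A gene cannot be told apart from its own.

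**Figure D1:**
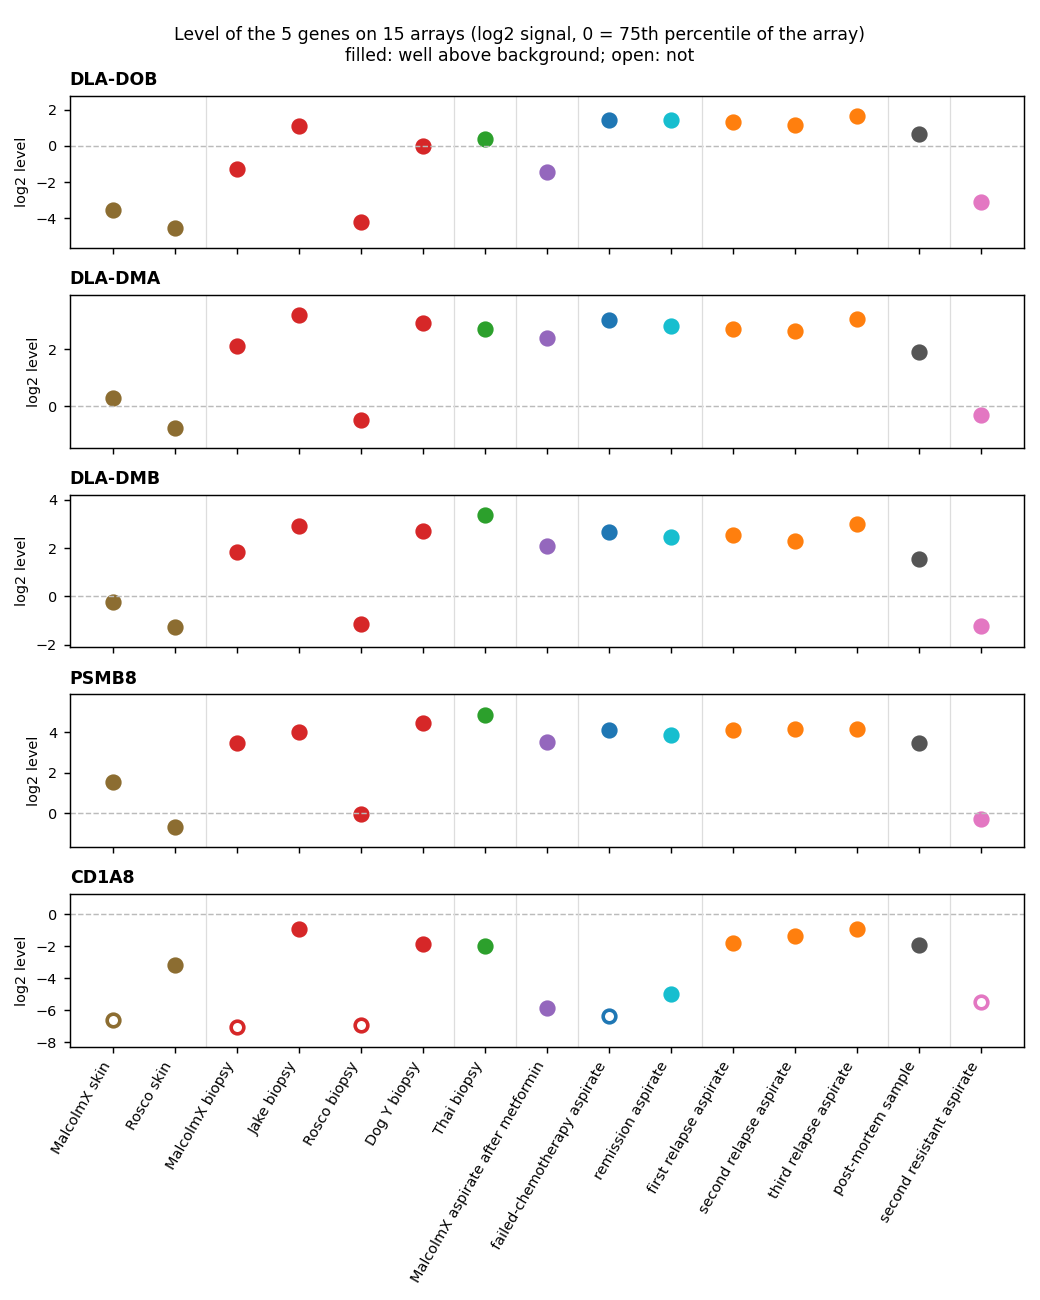
Level of each gene on each of the 15 arrays, as log2 signal relative to the 75th percentile of the array (vertical axis, own scale per gene), with arrays on the horizontal axis and 1 colour per group; filled points are well above background and open points are not. The 4 peptide route genes are low in both skin samples, the Rosco biopsy and the second resistant aspirate, while CD1A8 is low in the MalcolmX skin and tumour samples, the Rosco biopsy, both earlier Rosco aspirates and the second resistant aspirate, and is above background at -3.20 in Rosco skin.

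The first comparison set the resistant biopsies against skin, the control tissue of the series. The peptide route genes were higher on average in the biopsies, but 1 of the 4 biopsies lay at the level of skin. DLA-DOB had a mean of -1.11 in biopsies (SD 2.29, n = 4) against -4.04 for skin (SD 0.71, n = 2), a difference of 2.93 (SE 1.42, 95% interval -0.52 to 6.38). DLA-DMA differed by 2.18 (SE 1.08), DLA-DMB by 2.35 (SE 1.19) and PSMB8 by 2.55 (SE 1.38). None of these 4 genes passed limma's test, with adjusted p-values from 0.369 for DLA-DOB to 0.390 for PSMB8, and the groups overlapped for each. The same test called 0.431% of all targets (103 of 23921, 2 higher and 101 lower), and 3536 had an unadjusted p below the threshold. With dog as a replicate block it called 0, with 2108 below the unadjusted threshold, and the differences were 1.29 for DLA-DOB, 1.06 for DLA-DMA, 1.11 for DLA-DMB and 1.30 for PSMB8. Neither skin nor biopsies had CD1A8 above background on every array, so it was not tested. Its mean was -4.18 for biopsies (SD 3.25, n = 4) against -4.90 for skin (SD 2.40, n = 2), and the sign of that difference turned to -0.38 without Jake, -0.05 without Dog Y and -0.98 without MalcolmX skin.

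The Rosco biopsy decided this comparison. Without it the test called 12.8% of targets (3123 of 24419), and all 4 peptide route genes passed it. The array left out was the lowest of the biopsies in each of these 4 genes and was singled out with those levels known. The p-values without it therefore follow in part from that choice. DLA-DOB was then 3.97 higher in the 3 remaining biopsies than in skin (95% interval 2.09 to 5.84, adjusted p = 0.0342), DLA-DMA 2.99 (adjusted p = 0.0287), DLA-DMB 3.26 (adjusted p = 0.0254) and PSMB8 3.55 (adjusted p = 0.0374). Over the alternatives that changed a single setting and kept several arrays per group, limma adjusted p-values of these genes ran from 0.0254 to 0.796. Among alternatives that changed a single setting, only leaving out the Rosco biopsy brought any of them past the threshold. With the slide as a block and the Rosco biopsy left out, the 4 genes had adjusted p-values between 0.0221 and 0.0330. With dog as a replicate block instead, only the MalcolmX pair carries the difference, which was 2.26 for DLA-DOB, 1.86 for DLA-DMA, 2.09 for DLA-DMB and 1.96 for PSMB8, with no residual degrees of freedom and so no p-value. Of the B cell markers with a symbol, MS4A1 and CD40, the mean level was 3.70 to 4.01 in these 3 biopsies, 1.55 in MalcolmX skin, -4.47 in Rosco skin and -3.79 in the Rosco biopsy, and its part in the result was not tested.

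Within single dogs the contrast between tumour and skin was unequal. In MalcolmX the biopsy exceeded skin by the 4 values just given for the dog block. In Rosco the same differences were 0.32, 0.27, 0.14 and 0.64. Each is a pair of single arrays with no test. Of targets above background on both arrays, 35.3% differed at least 2-fold in MalcolmX and 27% in Rosco. CD1A8 went from -3.20 in Rosco skin to a level not well above background in the Rosco biopsy, and was not well above background in either MalcolmX sample.

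Other genes of these routes gave a similar picture without the Rosco biopsy, under the same choice made with the levels known. Of 9 class II route genes 7 were called higher than in skin, where 1499 of 24419 targets were called higher. The 7 included DLA-DRA by 3.01 and its partner chain, which the reference table names HLA-DRB1, by 2.73. CTSS, the protease that trims the invariant chain, was also called, at 2.29. The 3 class II genes DLA-DOB, DLA-DMA and DLA-DMB are counted among the 7. Of 7 class I route genes 5 rose, including the peptide transporter subunit TAP1 by 2.78, and of the 2 immunoproteasome genes PSMB8 rose while PSMB9 was 2.76 higher with an adjusted p of 0.0525. None of the 4 standard proteasome genes and none of the 3 tested CD1 genes passed the test. The median difference was 2.99 for the class II list, 2.06 for class I, -0.07 for the standard proteasome and 0.64 for CD1, against 0.32 over all targets tested. All 6 tested interferon-induced genes rose as well, from OAS2 at 2.46 to CXCL10 at 4.03. With the Rosco biopsy included, none of the genes in these 6 lists passed the test.

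The sensitive tumour of Thai was set against the 4 resistant biopsies to ask how the genes compare between a responsive tumour and resistant ones. DLA-DMB was at 3.37 in Thai against 1.60 (SD 1.88, n = 4), and PSMB8 at 4.88 against 2.98 (SD 2.05, n = 4). Both lay above all 4 resistant biopsies, as did 20.5% of the targets tested. DLA-DOB was 1.50 higher (SE 1.97), DLA-DMA 0.77 (SE 1.47) and CD1A8 2.17 (SE 2.76), each within the range of the resistant biopsies, and the second DLA-DOB probe gave -0.46. The single Thai array borrowed its spread from the resistant group. Thai was on slide 3 and scan day 2, and the 4 resistant biopsies were on slides 1 and 2 and scan day 1. Drug sensitivity, dog, slide and scan day cannot be told apart here. limma called 0% of 26343 targets, with 785 at an unadjusted p below 0.05 and 0 called under every alternative, and the adjusted p of each of the 5 genes was 0.9996. The interval for PSMB8 ran from -2.58 to 6.38, so differences of several log2 units in either direction were not detectable. Without the Rosco biopsy the differences shrank to 0.46 for DLA-DOB, -0.04 for DLA-DMA, 0.87 for DLA-DMB, 0.89 for PSMB8 and 1.25 for CD1A8. IFNG, the cytokine that induces the immunoproteasome and class II genes, stood at -3.15 in Thai and was well above background on 0 of the 4 resistant biopsies, so its distance from them has no measured size. CXCL10, a chemokine induced by it, stood at 4.06 against -0.60 (SD 1.30, n = 4), and neither gene was called. All 6 T and NK cell markers were higher in Thai, with a median difference of 3.01 against 0.08 over all targets, and their part in the levels above was not tested.

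**Figure D2:**
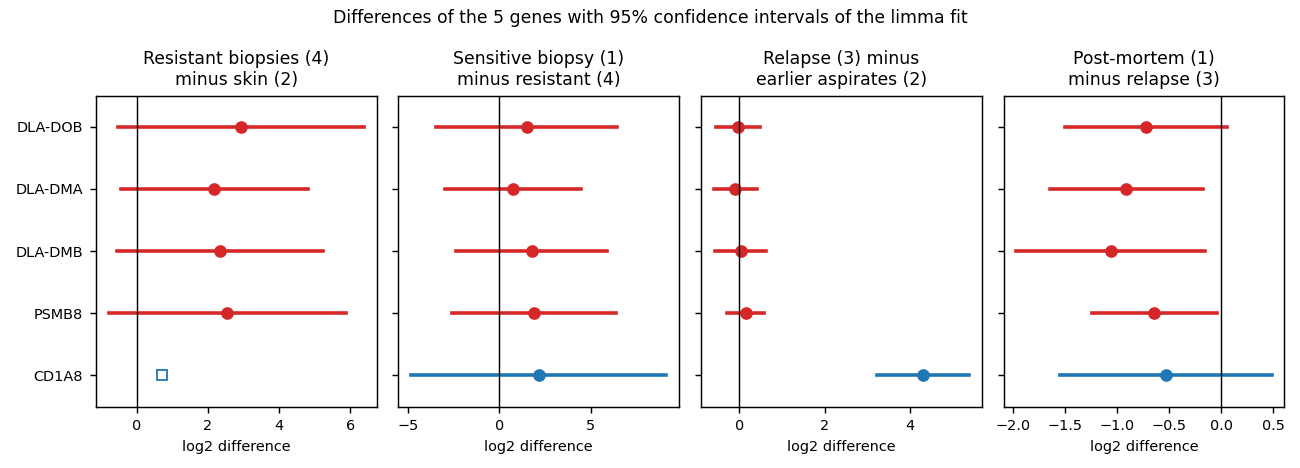
Difference of each gene in the 4 comparisons (horizontal axis, log2, own scale per panel), with 95% confidence intervals of the limma fit; the open square marks CD1A8 against skin, which was not tested. At relapse CD1A8 is 4.30 higher with an interval of 3.22 to 5.39, while the intervals of the 4 peptide route genes all contain 0.

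The course of Rosco gave the clearest separation between the peptide genes and the lipid presenter. At relapse CD1A8 rose to -1.37 (SD 0.42, n = 3) from -5.67 (SD 0.95, n = 2) in the failed-chemotherapy and remission aspirates. The difference was 4.30 (SE 0.44, 95% interval 3.22 to 5.39), with a limma adjusted p of 0.00143. CD1A8 entered the test through the relapse group, where 3 of 3 arrays had it well above background, and the earlier mean includes the failed-chemotherapy level of -6.34, which was not. Against the remission aspirate alone, with CD1A8 above background on both sides, the difference was 3.63 (adjusted p = 0.00940). Every relapse aspirate lay above both earlier ones, as for 28.9% of targets, and the test called 33.7% of all targets (8551 of 25366, 4408 higher and 4143 lower). On slide 4, which holds the remission aspirate, the difference was 3.84 (adjusted p = 0.00861). On slide 3 it was 4.56, against the failed-chemotherapy array and so against a level at background. With background corrected by normexp, which compresses dim signals, it was 1.61. Adjusted p-values over all alternatives ran from 0.000157 to 0.00940.

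The peptide route genes did not pass the test in the same samples. DLA-DOB averaged 1.39 (SD 0.26, n = 3) at relapse and 1.42 (SD 0.0039, n = 2) before, a difference of -0.03 (95% interval -0.54 to 0.48, adjusted p = 0.936). DLA-DMA differed by -0.10 (95% interval -0.60 to 0.40, adjusted p = 0.754) and DLA-DMB by 0.03 (95% interval -0.57 to 0.64, adjusted p = 0.933). PSMB8 differed by 0.15 (95% interval -0.29 to 0.58, adjusted p = 0.567). All 4 genes overlapped between the groups. The 4 intervals together spanned -0.60 to 0.64, while that of CD1A8 began at 3.22.

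The contrast between the routes was also taken within arrays, as the level of each peptide route gene minus that of CD1A8. Only its change between groups can be read, since the probes differ. It changed at relapse by -4.33 for DLA-DOB, -4.40 for DLA-DMA, -4.27 for DLA-DMB and -4.16 for PSMB8, and the groups did not overlap for any of the 4. The 4 differences share CD1A8 and are not independent. CD1A8 by itself lay higher on every relapse array, as did 28.9% of targets, while the 4 peptide route genes overlapped. The lack of overlap therefore restates the change of CD1A8. An exact two-sided permutation test gave p = 0.200 for each, the smallest that 3 against 2 arrays allow, and 0.400 after Benjamini-Hochberg adjustment over the 8 such tests. These values rest partly on background levels, since CD1A8 was not well above background on 1 of the 2 earlier aspirates, 2 of the 4 resistant biopsies and 1 of the 2 skin samples. Between resistant biopsies and skin the same differences were 1.47 to 2.21 with exact permutation p-values of 0.533 to 0.667, where 0.133 is the smallest possible, and the groups overlapped.

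The other genes of these routes fell into different directions at relapse. CD1A6, the neighbouring CD1A copy, rose by 2.61 (SE 0.36, adjusted p = 0.00344), from -4.66 and -4.28 in the earlier aspirates to -2.33, -2.03 and -1.22. Over the other settings its difference ran from 1.07 to 2.85, and it was called in 11 of 11. CD1B was 1.09 higher (adjusted p = 0.0512) and CD1C 0.60 higher, and neither passed the test. The CD1 list had 2 of 4 genes called higher, where 4408 of 25366 targets were, and its median difference was 1.85 against -0.08 over all targets. The 2 called genes, CD1A6 and CD1A8, are related copies, so their probes may share signal. None of the 9 class II route genes passed, with a list median of -0.08. DLA-DRA, at -0.08, and HLA-DRB1, at -0.16, encode chains of the DR heterodimer, and the largest differences in the list were 0.46 for CTSS and -0.41 for DLA-DQB1.

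Of 7 class I route genes 4 were called lower, where limma called 4143 of 25366 targets lower. DLA-79 fell by 2.80 (SE 0.18, adjusted p = 0.000405), from 1.40 and 1.19 to -1.50, -1.62 and -1.39. DLA88, the main classical class I heavy chain of the dog, fell by 1.46 (SE 0.17, adjusted p = 0.00207), DLA-64 fell by 1.06 (SE 0.17, adjusted p = 0.00629) and TAP1 fell by 0.83 (SE 0.18, adjusted p = 0.0152). TAP2 (0.11), TAPBP (-0.25), which bridges the transporter to class I, and the chaperone CANX (-0.14) did not pass. DLA-64 lost its call without the remission aspirate (adjusted p = 0.0583), and TAP1 without the first relapse, the failed-chemotherapy or the remission aspirate (adjusted p up to 0.0959). Class I heavy chain genes are alike in sequence, so their probes may share signal. PSMB9, the immunoproteasome partner of PSMB8, differed by 0.28, and of 4 standard proteasome genes PSMB7 rose by 1.05 (adjusted p = 0.0155), a call lost without either earlier aspirate, while PSMC1 (0.66), PSMB3 (0.50) and PSMD4 (-0.19) did not pass. PSMB7 is the constitutive subunit that the inducible PSMB10 replaces.

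Genes induced by interferon moved both ways. MX1, an antiviral GTPase, rose by 3.59 (SE 0.29) and OAS2, which makes the activator of RNase L, by 2.42 (SE 0.28), while the related OAS3 fell by 1.15 (SE 0.17), each called by limma with adjusted p-values of 0.000686, 0.00194 and 0.00425. Over the other settings the OAS3 difference came as near 0 as -0.69, and it stayed called in 11 of 11. OAS1, OASL and CXCL10, at 0.39, -1.13 and 1.29, did not pass. IFNG lay lower at relapse but did not enter the test, being well above background on 0 of 3 relapse and 1 of 2 earlier aspirates. PSMB8 and PSMB9, which interferon also induces, were not called in these arrays.

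Markers of cell types moved in the same samples. The T and NK cell list had 4 of 6 markers called lower, where limma called 4143 of 25366 targets lower. The 4 included CD8A at -6.42 (SE 0.33), CD28 at -5.35 and KLRD1 at -2.93. The mean level of the list was 0.45 in both earlier aspirates and -2.77 to -2.31 at relapse. Both B cell markers were called higher, MS4A1 by 1.70 (SE 0.22) and CD40 by 2.59 (SE 0.29), and the mean B cell level went from 1.24 and 0.94 to between 2.87 and 3.44. Of 5 monocyte and macrophage markers CYBB, a subunit of the phagocyte oxidase that B cells also express, was called higher by 2.04, and of 3 dendritic cell markers FLT3 was called lower, at -1.39 (as near 0 as -0.79 in other settings). Both tested muscle markers were called higher, MYH2 by 3.59 and MYH7 by 3.07, though in other settings these fell to 0.15 and -0.07. MYH2 was well above background on 0 of the 2 earlier aspirates. Of 5 matrix markers DCN was called lower, at -3.99, and of 2 fat markers ADIPOQ, at -1.88. So were 3 of 5 tested keratinocyte markers, KRT2, DSG1 and KRTDAP. Of 2 tested gland markers, SPINT2 was called higher and CA6 lower. With no filter on dim probes, ADIPOQ, DSG1, KRTDAP, SPINT2 and CA6 lost their calls, while DCN and KRT2 kept theirs. The part of these markers in the class I and CD1A results was not tested.

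**Figure D3:**
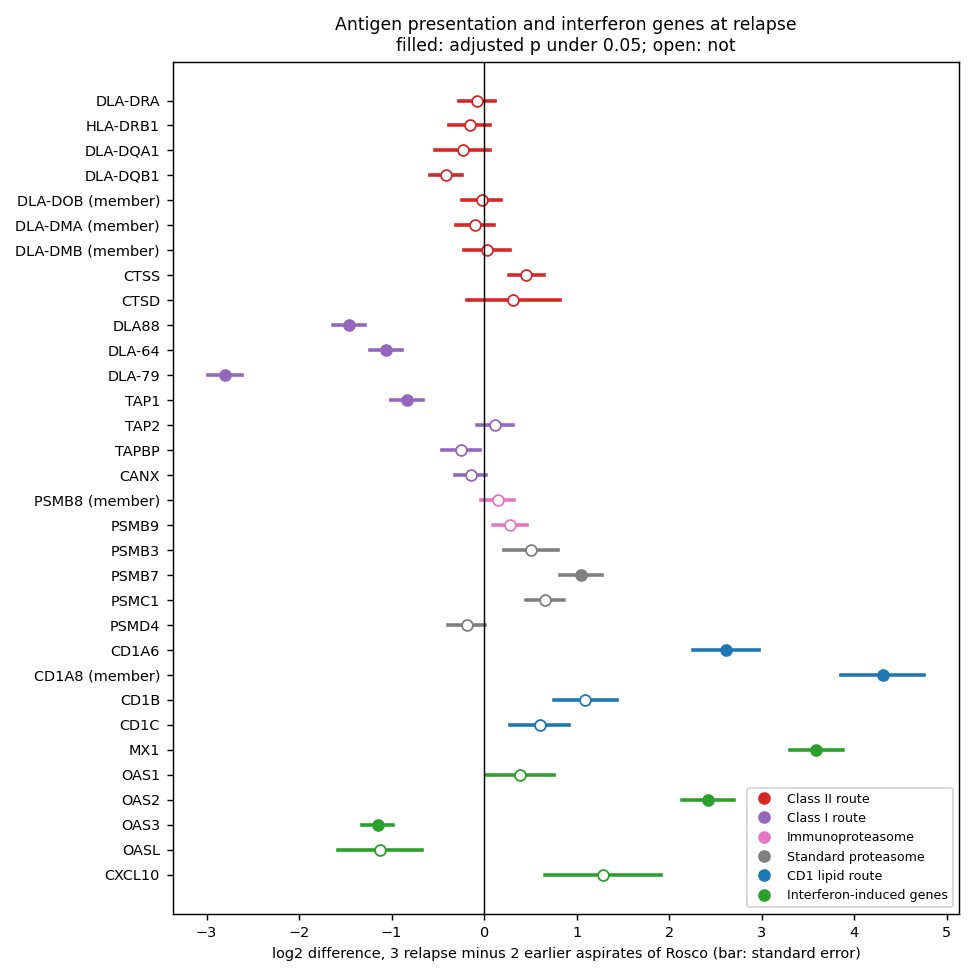
Difference between the 3 relapse aspirates and the 2 earlier aspirates of Rosco for genes of 6 lists (horizontal axis, log2, with the standard error as a bar), coloured by list; filled points passed limma's test at an adjusted p of 0.05 and open points did not. Class II genes lie near 0, 4 class I genes lie below it, and CD1A6 at 2.61 and CD1A8 at 4.30 lie above it.

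After death all 5 genes lay below all 3 relapse aspirates of the same dog, as did 29.3% of targets. DLA-DMB differed by -1.06 (SE 0.35, 95% interval -1.97 to -0.16), DLA-DMA by -0.91 (SE 0.28), DLA-DOB by -0.72 (SE 0.30), PSMB8 by -0.64 (SE 0.23) and CD1A8 by -0.53 (SE 0.39). limma called 0% of 27116 targets, with 4128 at an unadjusted p below 0.05, and adjusted p-values of the 5 genes were 0.269 to 0.541. Other settings called up to 431 targets, the most without the third relapse aspirate, and none of the 5 genes was among them. Of 9 class II route genes 8 were lower, with a median of -0.39 against 0.06 over all targets, and DLA-DRA at -0.29 and HLA-DRB1 at -0.09 lay closer to the relapse level than the DM genes. Class I genes were split, with DLA88 at 0.10 and TAP1 at 0.00. All 5 fibroblast and matrix markers were higher after death, with a median of 3.49 and COL1A1 at 4.10, and their part in the lower levels was not tested. For CD1A8 the sample after death, at -1.90, lay close to the lowest relapse level of -1.78. The single array borrowed its spread from the relapse aspirates. Death, time and any difference in sampling from the aspirates cannot be told apart here.

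Pairs of single arrays described the course further, with no test. Between the failed-chemotherapy and remission aspirates the peptide route genes differed by -0.28 to 0.01, and 4.52% of targets above background on both arrays differed at least 2-fold. CD1A8 went from not well above background to -5.00. Between the MalcolmX biopsy and the aspirate after metformin the peptide route genes differed by -0.16 to 0.26. For that pair, 9.07% of targets above background on both arrays differed at least 2-fold. CD1A8 was not well above background in the biopsy and stood at -5.87 in the aspirate. The lowest level well above background was -5.50 on the biopsy array and -6.84 on the aspirate array. This pair therefore cannot show whether CD1A8 changed. In the second resistant aspirate of Rosco against the first biopsy, DLA-DOB was 1.13 higher on the probe used. Its second probe was not above background on either array. DLA-DMA, DLA-DMB and PSMB8 differed by -0.25 to 0.18. Here 8.45% of targets above background on both arrays differed at least 2-fold.

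Over the 15 arrays the peptide route genes ran in parallel. These correlations are descriptions, since the arrays share 5 dogs, 9 come from Rosco and 2 are skin. DLA-DMA and DLA-DMB had r = 0.987, PSMB8 had r = 0.975 with DLA-DMA and 0.984 with DLA-DMB, and DLA-DOB had r between 0.902 and 0.936 with the other 3. CD1A8 had r between 0.457 and 0.565 with the 4 genes. It was well above background on 10 of the 15 arrays, so its r values rest partly on background levels. Without the 2 skin arrays, the Rosco biopsy and the second resistant aspirate, a choice made after seeing the data, DLA-DMA and DLA-DMB had r = 0.836, DLA-DMB and PSMB8 0.864 and DLA-DMA and PSMB8 0.611 over 11 arrays. DLA-DOB then had r = 0.568 with DLA-DMA, 0.422 with DLA-DMB and 0.384 with PSMB8, but 0.909 with DLA-DRA. The 4 arrays left out are those where these genes were lowest, so a lower r follows in part from the choice.

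Among 1058 other named genes, those most like each gene over the 15 arrays were sought by Pearson's r. For DLA-DOB they were HLA-DRB1 (0.959), DLA-DRA (0.957) and DLA-DQB1 (0.947), all genes of class II chains. For DLA-DMA they were DLA-DMB, TNFRSF14 (0.981), the receptor that binds BTLA, and PSMB8, and for DLA-DMB they were DLA-DMA, PSMB8 and TNFRSF14 (0.983). For PSMB8 they were DLA-DMB, its partner PSMB9 (0.978) and DLA-DMA. For CD1A8 they were DAPK1 (0.915), a calcium-dependent kinase linked to cell death, and the small GTPases RAC1 (0.896) and RAB10 (0.876), with none of the antigen presentation genes among the first 3. CD1A6 had r = 0.756 with CD1A8 over 15 arrays and 0.674 over 11, and CYBB 0.801 and 0.918. All r values of CD1A8 rest partly on background levels. MS4A1 had r between 0.739 and 0.928 with the peptide route genes over 15 arrays and between -0.653 and 0.104 over 11, with the value for DLA-DOB the lowest.

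**Figure D4:**
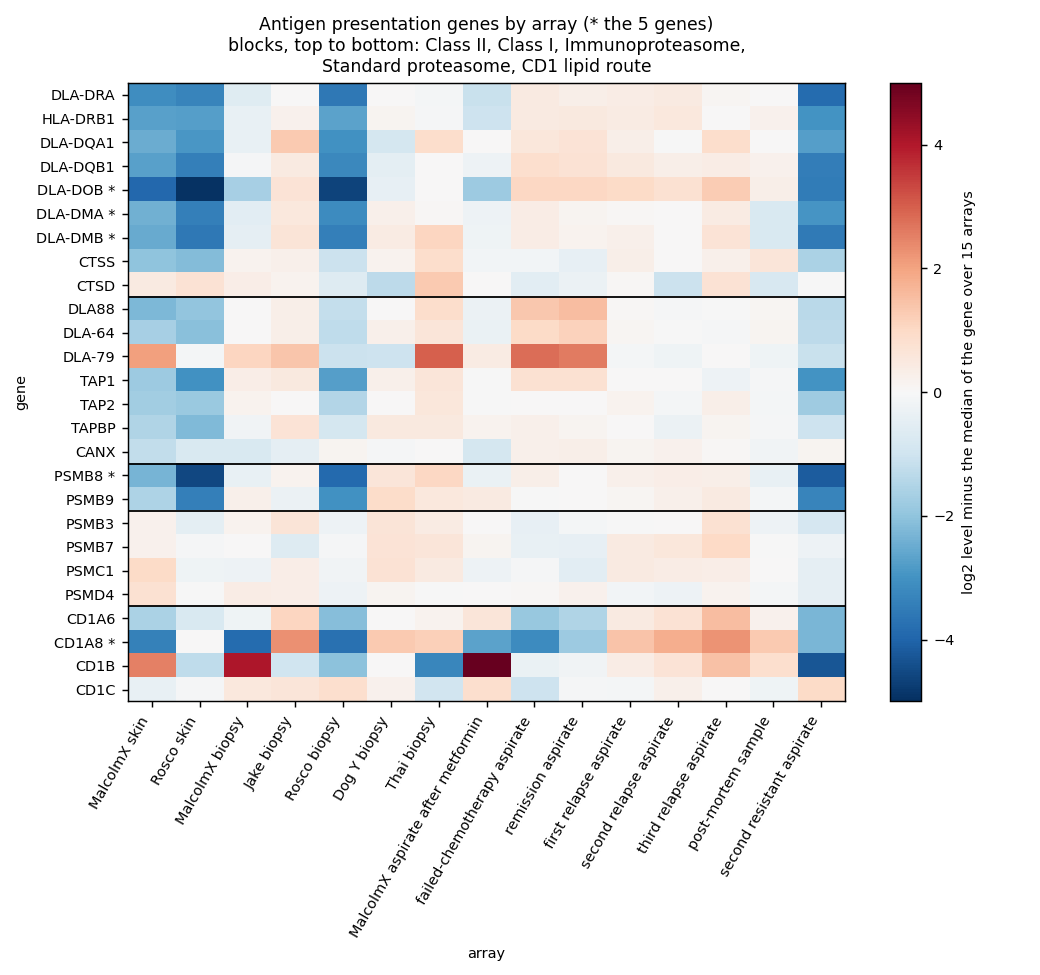
Levels of 26 genes of the antigen presentation routes (rows, the 5 genes marked with a star) on the 15 arrays (columns), as log2 level minus the median of the gene over the arrays, so that red is higher and blue lower. The genes of the class II, DM and DO chains and PSMB8 are blue in both skin samples, the Rosco biopsy and the second resistant aspirate, while CD1A8 is blue in the MalcolmX skin, biopsy and aspirate, the Rosco biopsy, and the failed-chemotherapy, remission and second resistant aspirates, with Rosco skin at its median. In the failed-chemotherapy and remission aspirates the class I heavy chain genes are red.

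The CD1 genes did not all share a pattern, though CD1A6 and CD1A8 were both called higher at relapse. CD1B was highest in the samples of MalcolmX, at 2.02 after metformin, 0.95 in the biopsy and -0.58 in skin, and at most -1.62 elsewhere, while CD1A8 in these samples was near or at background. CD1C ranged only from -4.65 to -2.66. The highest CD1A6 level, -1.22, was in the third relapse aspirate and the lowest, -5.07, in the second resistant aspirate, and in the MalcolmX tumour samples CD1A6 was at -2.98 before and -2.17 after metformin, above both earlier Rosco aspirates.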

How the data were processed

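RNA of 15 samples was hybridised to 1-colour Agilent arrays, 1 per sample, using 4 slides and 2 scan days. RNA passed an integrity limit and was labelled with a low-input kit, per the labels' protocols. Per the submitters' processing notes, the authors used Agilent Feature Extraction 11.0.1.1. The deposited processed intensity is background-subtracted per the file headers and not normalised between arrays. The other deposited columns used are flags of 0 or 1, per the file headers. The authors' series table equals median minus background intensity in 678300 of 678300 cells within 0.01.

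Outlier and control spots were left out (2 to 50 outliers per array), intensities were divided by the 75th percentile of the array and put on the log2 scale, and spots of a probe were averaged. Percentiles ran from 367 to 1241. RefSeq accessions named 2186 of 43603 probes (5.01%), and the brightest probe stood for a gene with several. A target entered a test if all arrays of 1 of the groups had it well above background. Tests were two-sided in limma 3.58.1 (R 4.3.3), and p-values were adjusted by Benjamini-Hochberg over every target tested, with a threshold of 0.05. A group of 1 array borrows the spread of the other. Dog pairs the skin and biopsy samples of MalcolmX and Rosco, whose deviations from the group means had r = 0.126 and 0.294 over 36460 targets. Slides were used as a block and within-slide values were taken. The steps were tested on simulated data.

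The genes, lists and tests were chosen with earlier results of these data known. The lists are described by counts and medians with no test of their own. Genes named are the 5 genes, per list those called or most different, and per gene the 3 most alike. CD1B and CYBB levels, and IFNG, CXCL10 and COL1A1 as examples, were given after their values were seen. Alternatives were quantile scaling, normexp background with an offset of 50, the authors' table, no filter on dim probes, the mean of probes, slide and dog blocks, and leaving out each array. Labels do not say whether the relapse aspirates came from separate sites, so p-values measure only the spread between these samples. The reference gene table was used for names and for which genes neighbour each other, and no coordinates are given.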

Additional observations from a re-analysis of the deposited data

How the results depend on the processing

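Counts against skin moved most: 8 targets with normexp background, 55 with the authors' table, 65 without the filter, 32 with slide as a block, 40 within slide 1, 0 with dog as a replicate block, and 5 to 3123 on leaving out an array, the highest without the Rosco biopsy. On leaving out an array the differences against skin ran from 2.20 to 3.97 for DLA-DOB, 1.67 to 2.99 for DLA-DMA, 1.82 to 3.26 for DLA-DMB, 1.44 to 3.66 for PSMB8 and -0.98 to 2.41 for CD1A8, and within slide 2 CD1A8 gave -3.83. The level minus CD1A8 ran from -0.75 to 3.68 for DLA-DMA, -0.59 to 3.85 for DLA-DMB and -0.98 to 4.64 for PSMB8, negative without Rosco skin, and from 0.01 to 4.41 for DLA-DOB. With dog as a replicate block the differences against skin were 1.29 for DLA-DOB, 1.06 for DLA-DMA, 1.11 for DLA-DMB and 1.30 for PSMB8, with no call of the 5 genes changed, and without the Rosco biopsy that block leaves no test. For Thai against resistant biopsies DLA-DMA ran from -0.0387 to 1.19.

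At relapse 2497 targets were called within slide 4 and 3769 to 9758 on leaving out an array. CD1A8 ran from 3.63 to 4.97 on leaving out an array and passed the test under each of the 12 alternatives that have one. The small peptide route differences changed sign on leaving out an array: DLA-DOB ran from -0.17 to 0.0881, DLA-DMA from -0.22 to 0.00627 (-0.24 with quantile scaling, -0.29 within slide 3, 0.0537 within slide 4), and DLA-DMB from -0.15 to 0.19 (-0.10 with quantile scaling, -0.13 within slide 3). PSMB8 gave -0.0204 with quantile scaling and -0.0293 within slide 3. None of these was called. After death 390 targets were called with normexp background, 14 with the mean of probes and 0 to 431 on leaving out an array, and PSMB8 differed by -0.61 within slide 3. The cause of these changes was not tested. Another background or table moved the median of all targets for Thai from 0.08 to -0.06 (normexp) and -0.10 (authors' table). CD1A8 near background limits its fold before relapse, since 1 of the 2 earlier arrays did not measure it well above background. Where an array left 1 sample in a group, it is assumed to vary like the other group.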
